A study of Homo sapiens with 8 samples.

Results

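The 10 genes described here are the 4 fibroblast growth factor (FGF) receptors FGFR1, FGFR2, FGFR3 and FGFR4, the FGF ligands FGF9, FGF18 and FGF19, the FGF-binding protein FGFBP1, and the receptor kinases MET and MST1R, the latter also known as RON. They were chosen by their Ensembl gene IDs, given once with each gene. The rule uses no measured value, although earlier results of these data were known when the list was drawn up, and all 10 were found among the 19002 genes of the table. RNA came from 2 established human colorectal cancer lines, LoVo, which derives from a metastasis of a colon adenocarcinoma, and GP5d, a colon carcinoma line. Both were grown on plastic in serum-containing DMEM with antibiotics, with no further treatment named, and 4 biological replicates of each were hybridised to Affymetrix arrays. Each line stands for 1 tumour, and serum brings growth factors of its own to both.

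FGFs are secreted proteins that bind heparan sulphate and the extracellular part of an FGF receptor. Receptor pairs then phosphorylate each other and the adaptors that feed the RAS-MAPK and PI3K pathways. Each of the receptors FGFR1, FGFR2 and FGFR3 is made in splice forms, of which epithelial cells usually make the one that answers to FGFs of the surrounding tissue. MET, the receptor of hepatocyte growth factor, and MST1R, the receptor of macrophage-stimulating protein, form a separate family of receptor kinases, and both are found on gut epithelium, where they act in growth, movement and repair.

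The lines were called different at 4 of the 10 genes. FGF9 was higher in LoVo, and FGF18, FGFR3 and MST1R were higher in GP5d, with estimates of 2.31-fold to 2.70-fold as deposited. These are estimates and not bounds, and that of FGF18 uses LoVo values too low to be read exactly. Smaller differences passed the test at FGFR2, FGF19 and MET, 3 of the 10, as they did at 30.0% of all genes. Those of FGFR2 and FGF19 also use LoVo values too low to be read exactly. FGFR1, FGFR4 and FGFBP1 did not pass the test. The difference of each gene is LoVo minus GP5d on the log2 scale. A gene is called different where the Benjamini-Hochberg adjusted p of limma over all 19002 genes is under 0.05 and the absolute log2 difference is at least 1. This rule called 13.3% of all genes. It called 6.12% in favour of LoVo, against 1 of the 10 genes here, and 7.2% in favour of GP5d, against 3 of 10. The median absolute log2 difference was 0.56 over the 10 genes and 0.25 over all genes. The latter covers many genes of low signal, as 45.6% of all values were at or below 2.78 on the log2 scale. LoVo replicate 3 stood apart in the table as a whole: it correlated across all genes with the mean of the other LoVo arrays at 0.991, whereas the other LoVo arrays did so at 0.996 to 0.997. The same 4 genes were called without it. In RNA from whole cultures, a lower share of expressing cells and less RNA per cell cannot be told apart.

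Values below about 2.78 on the log2 scale crowd together at the bottom of the scale, where probe affinity and background correction decide much of the value. Such values are called the low peak and have no reliable order. FGFR1, FGFR3, FGF9, FGFBP1, MET and MST1R were above the low peak on all 8 arrays. FGFR2, FGF18 and FGF19 lay within it on the 4 LoVo arrays, and FGFR4 lay within it on the 4 GP5d arrays. Levels of different genes are not set against each other, because each gene has its own probes. One value per gene also means that splice forms were not separated.

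**Figure D1:**
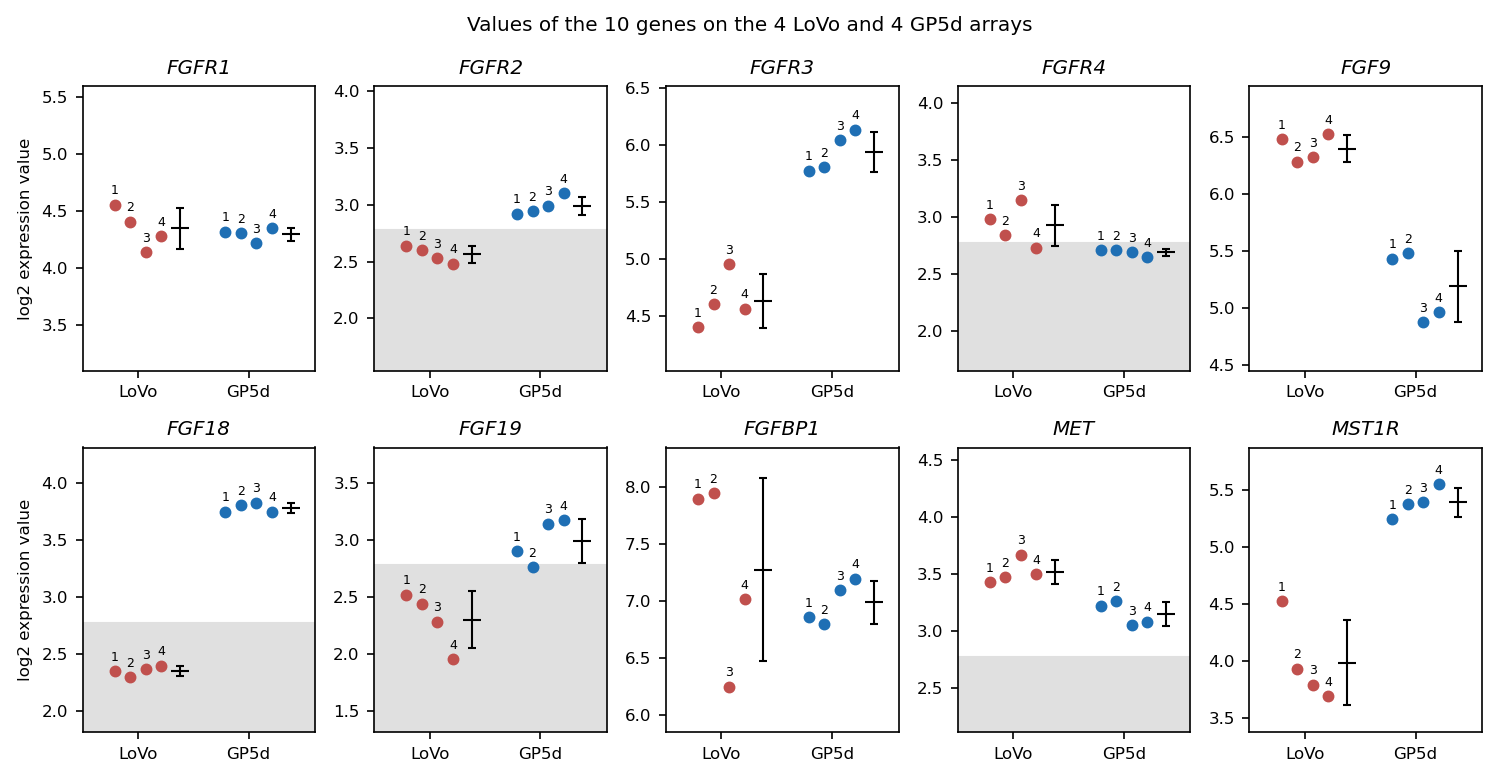
Log2 expression values (vertical axis) of the 10 genes on each array, with numbers giving the replicate, black marks the mean ± SD of the line (n = 4) and grey the low peak; each panel spans the same range of log2 units around a different centre. FGF18, FGFR3, MST1R and FGF9 show wide gaps between the lines, and the LoVo values of FGFBP1 spread on both sides of the GP5d values.

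Promoter sequences are shown for the 3 genes that were called higher in GP5d, so that what the start regions of genes moving the same way do and do not share can be read directly. Each runs from 250 bases before to 50 bases after the annotated start (RefSeq, GRCh38.p14). The FGFR3 window is chr4:1793043-1793342 (plus strand), that of FGF18 is chr5:171419397-171419696 (plus strand) and that of MST1R is chr3:49903824-49904123 (minus strand). Capitals mark 2 kinds of match on either strand, the GC box GGGCGG, recognised by SP1-type factors, and the TCF/LEF motifs CTTTGAT and CTTTGTT, recognised by the factors that act with beta-catenin. Neighbouring GC boxes can overlap in 1 run of capitals.
FGFR3: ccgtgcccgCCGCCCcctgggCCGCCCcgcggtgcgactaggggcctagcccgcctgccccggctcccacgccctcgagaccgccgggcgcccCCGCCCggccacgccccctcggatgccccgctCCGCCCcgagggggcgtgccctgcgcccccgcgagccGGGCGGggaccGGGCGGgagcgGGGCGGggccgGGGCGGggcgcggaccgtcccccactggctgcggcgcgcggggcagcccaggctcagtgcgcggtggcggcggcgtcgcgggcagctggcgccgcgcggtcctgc
FGF18: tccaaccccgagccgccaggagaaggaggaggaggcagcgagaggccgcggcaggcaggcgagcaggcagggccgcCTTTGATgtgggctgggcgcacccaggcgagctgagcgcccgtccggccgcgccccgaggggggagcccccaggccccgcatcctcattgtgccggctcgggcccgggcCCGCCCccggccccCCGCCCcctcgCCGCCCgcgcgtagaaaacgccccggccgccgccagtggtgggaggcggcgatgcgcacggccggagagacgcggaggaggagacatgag
MST1R: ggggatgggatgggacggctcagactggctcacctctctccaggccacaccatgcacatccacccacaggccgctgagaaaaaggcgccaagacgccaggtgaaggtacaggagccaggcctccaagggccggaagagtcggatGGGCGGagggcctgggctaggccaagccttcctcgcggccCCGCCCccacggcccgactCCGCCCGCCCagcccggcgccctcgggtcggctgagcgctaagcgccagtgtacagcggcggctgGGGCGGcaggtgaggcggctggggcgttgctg

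All 3 windows were rich in G and C, at 86.3% in FGFR3, 77.7% in FGF18 and 71.3% in MST1R, against a median of 58.7% over 35116 promoter windows. They held 8, 3 and 5 GC boxes, respectively. This did not set them apart from every gene that was not called. The most GC-rich windows of FGFR2 and FGFR4 and the window of MET reached 79.3%, 78.7% and 69.3%, with 5, 7 and 3 GC boxes. The other FGFR2 windows were at 47.3% to 50.7%, with 0 or 1 GC box each. The other FGFR4 window was at 57.3% and the FGFBP1 window at 42.0%, both with 0 GC boxes. At least 1 GC box was found in 45.0% of all windows. A TCF/LEF match was found in FGF18, with its first base 174 bases before the start, and neither in FGFR3 nor in MST1R. Of all windows, 7.61% held such a match. FGFBP1, which was not called, also held 1. CpG dinucleotides numbered 51 in FGFR3, 38 in FGF18 and 25 in MST1R. They numbered 52 in the most GC-rich window of FGFR2, 30 in that of FGFR4, 30 in MET and 3 in FGFBP1. Promoter windows matched 7 of the 9 genes looked for, with none for FGF9 or FGF19, and FGFR1 was not looked for. A match is a description of letters, and occupancy by a factor was not measured.

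Among the FGF receptors, FGFR3 (ENSG00000068078_at) alone was called different. FGFR3 signals in response to several FGFs, FGF9 and FGF18 among them. On LoVo arrays 1 to 4 its values were 4.40, 4.60, 4.95 and 4.56, and on the GP5d arrays they were 5.77, 5.80, 6.04 and 6.13. The lowest GP5d value lay 0.82 above the highest LoVo value. The LoVo mean of FGFR3 was 4.63 ± 0.234 and the GP5d mean 5.93 ± 0.176 (SD over 4 arrays each), a difference of -1.31 (SE 0.132, limma adjusted p = 2.35e-05), or 2.47-fold higher in GP5d with a 95% interval of 2.02-fold to 3.04-fold. This interval is not adjusted for the number of genes tested, and FGFR3 did not pass a test against the 2-fold limit (limma's treat, adjusted p = 0.264). The highest LoVo value came from replicate 3. Without it the difference was -1.42 (limma adjusted p = 4.78e-06).

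FGFR2 (ENSG00000066468_at), the receptor whose epithelial form answers to FGF7 and FGF10, showed a small difference at the edge of the low peak. Its values were 2.64, 2.60, 2.53 and 2.48 in LoVo and 2.92, 2.94, 2.99 and 3.10 in GP5d. The lines did not overlap, but the LoVo values were all in the low peak. The difference was -0.42 (95% interval -0.60 to -0.25, limma adjusted p = 0.00129), or 1.34-fold as deposited. Raising the LoVo values to the end of the low peak left GP5d an estimated 1.16-fold higher. With that end at 4 SDs above the mode the difference was -0.0037 and did not pass (limma adjusted p = 0.693).

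FGFR1 (ENSG00000077782_at), the FGF receptor most typical of mesenchymal cells, showed no difference that passed the test. Its values were 4.56, 4.41, 4.14 and 4.28 in LoVo and 4.32, 4.31, 4.22 and 4.35 in GP5d, and the GP5d values lay inside the range of LoVo. The difference was 0.05 (95% interval -0.17 to 0.27, limma adjusted p = 0.715). The interval thus leaves room for a change of up to 1.21-fold towards LoVo and does not show that the lines are equal. Without LoVo replicate 1 the sign turned, at -0.02.

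FGFR4 (ENSG00000160867_at), which with the co-receptor beta-klotho receives the hormone FGF19, was close to the low peak in both lines. Its values were 2.98, 2.84, 3.15 and 2.73 in LoVo and 2.71, 2.71, 2.69 and 2.65 in GP5d. The lowest LoVo value exceeded the highest GP5d value by 0.02, and both of these lay in the low peak, so this separation carries no order. The difference of 0.24 (95% interval 0.02 to 0.46) did not pass the test (limma adjusted p = 0.0754). It passed in 3 of 16 alternative fits, with adjusted p between 0.029 and 0.213 over all of them. The 3 were a common median (0.0343), quantile normalization (0.0482) and the fit without LoVo replicate 4 (0.029).

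The ligands went in both directions. FGF9 (ENSG00000102678_at), a secreted FGF that in the developing mouse gut passes from epithelium to mesenchyme, was the 1 gene of the 10 called higher in LoVo. Its values were 6.48, 6.28, 6.32 and 6.52 in LoVo and 5.43, 5.48, 4.87 and 4.96 in GP5d. All LoVo values were above all GP5d values, with a gap of 0.80, and GP5d replicates 3 and 4 were the lowest. Mean values were 6.40 ± 0.117 for LoVo and 5.19 ± 0.315 for GP5d (SD over 4 arrays each). The difference was 1.21 (SE 0.147, limma adjusted p = 8.27e-05), or 2.31-fold, with a 95% interval of 1.84-fold to 2.91-fold that reaches below the 2-fold limit.

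FGF18 (ENSG00000156427_at), a ligand described as a target of Wnt signalling in colorectal tumours, was low in LoVo on every array and higher in GP5d. Its values were 2.35, 2.30, 2.37 and 2.40 in LoVo and 3.75, 3.81, 3.83 and 3.75 in GP5d. Every LoVo value was in the low peak and every GP5d value was above it, with a gap of 1.35 between the lines. The FGF18 mean was 2.35 ± 0.0411 for LoVo and 3.79 ± 0.0419 for GP5d (SD over 4 arrays each), a difference of -1.43 (SE 0.0691, limma adjusted p = 1.33e-07), or 2.70-fold as deposited. Because LoVo lies in the low peak, the more cautious estimate sets the GP5d mean against the end of that peak, at 2.01-fold. This estimate carries no interval and is no firm bound. It was 2.49-fold or 1.63-fold where the peak was taken to end at 2 or 4 instead of 3 SDs above its mode. At 4 SDs the call was lost, with a difference of -0.71 that still passed the test of a difference from 0 (limma adjusted p = 2.89e-06). A test against the 2-fold limit, which 6.58% of all genes passed, was passed by 1 of the 10 genes, FGF18 (limma's treat, adjusted p = 0.00131). That pass uses the LoVo values within the low peak and does not establish a difference beyond 2-fold. MST1R, FGFR3 and FGF9 did not pass it (limma's treat, adjusted p = 0.227, 0.264 and 0.931).

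FGF19 (ENSG00000162344_at), in the body a hormone of the ileum that lowers bile acid synthesis in the liver, was low in both lines. Its values were 2.52, 2.44, 2.28 and 1.95 in LoVo and 2.90, 2.76, 3.14 and 3.17 in GP5d. The LoVo values and GP5d replicate 2 were in the low peak, where values have no order. The difference was -0.69 (95% interval -1.01 to -0.38, limma adjusted p = 0.00245) as deposited. With values in the low peak raised to its end, the difference shrank to -0.22 and did not pass (limma adjusted p = 0.131), so the level of FGF19 was not shown to differ beyond what the low values allow.

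FGFBP1 (ENSG00000137440_at), a secreted carrier that frees FGFs from heparan sulphate in the matrix, varied more within LoVo than between the lines. Its values were 7.90, 7.95, 6.25 and 7.02 in LoVo and 6.86, 6.80, 7.10 and 7.20 in GP5d. LoVo replicates 1 and 2 were above every GP5d array and LoVo replicate 3 was below every one. LoVo had an SD of 0.806 and GP5d one of 0.191 (4 arrays each), and the difference of 0.29 did not pass the test (95% interval -0.45 to 1.03, limma adjusted p = 0.526). It depended on single arrays. Without LoVo replicate 3 it was 0.63 (limma adjusted p = 0.0371), and it was 0.08 and 0.06 without LoVo replicates 1 and 2 (limma adjusted p = 0.865 and 0.891).

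**Figure D2:**
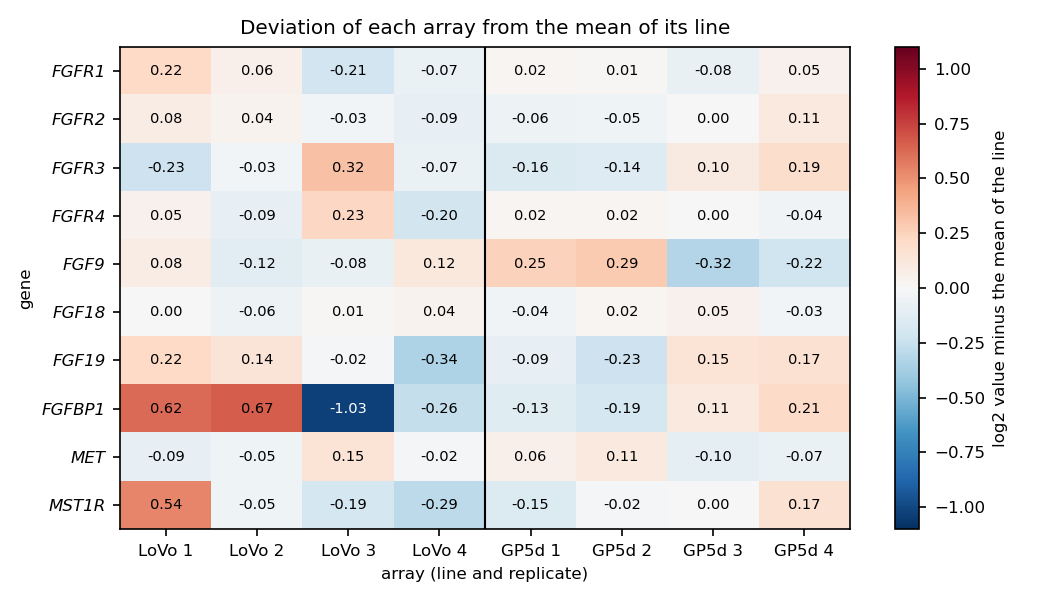
Deviation of each array (columns, line and replicate) from the mean of its own line for each gene (rows), in log2 units, with red above and blue below the mean. The largest entry is FGFBP1 on LoVo replicate 3, at -1.03, followed by FGFBP1 on LoVo replicates 2 and 1, at 0.67 and 0.62, and MST1R on LoVo replicate 1, at 0.54.

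The plot of deviations shows where the replicates scatter. The SD between replicates was larger in LoVo than in GP5d at 7 of the 10 genes, and at 78.6% of all genes. LoVo replicate 3 was the highest or lowest of its line at 5 of the 10 genes, and at 70.2% of all genes. The 4 calls held without it, with differences of 1.24 for FGF9, -1.44 for FGF18, -1.42 for FGFR3 and -1.34 for MST1R.

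The receptors MET and MST1R differed in opposite directions. MET (ENSG00000105976_at) was slightly higher in LoVo, with values of 3.43, 3.47, 3.67 and 3.50 against 3.22, 3.26, 3.05 and 3.08 in GP5d. The lines did not overlap, but the gap was 0.17. The LoVo mean of MET was 3.52 ± 0.106 and the GP5d mean 3.15 ± 0.103 (SD over 4 arrays each), a difference of 0.37 (SE 0.0874, 95% interval 0.17 to 0.56, limma adjusted p = 0.00613). This is 1.29-fold, under the 2-fold limit of a call, and 38.6% of all genes differed by as much or more. MET lay little above the low peak in both lines, by 0.75 in LoVo and 0.38 in GP5d.

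MST1R (ENSG00000164078_at) was higher in GP5d. Its values were 4.52, 3.93, 3.79 and 3.69 in LoVo and 5.24, 5.37, 5.39 and 5.55 in GP5d. LoVo replicate 1 was the highest of its line and still 0.72 below the lowest GP5d array. Its mean was 3.98 ± 0.373 for LoVo and 5.39 ± 0.128 for GP5d (SD over 4 arrays each), a difference of -1.41 (SE 0.168, limma adjusted p = 7.29e-05), or 2.65-fold with a 95% interval of 2.04-fold to 3.44-fold. This interval is likewise unadjusted, and MST1R did not pass the test against the 2-fold limit (limma's treat, adjusted p = 0.227). Without LoVo replicate 1 the difference was -1.59.

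**Figure D3:**
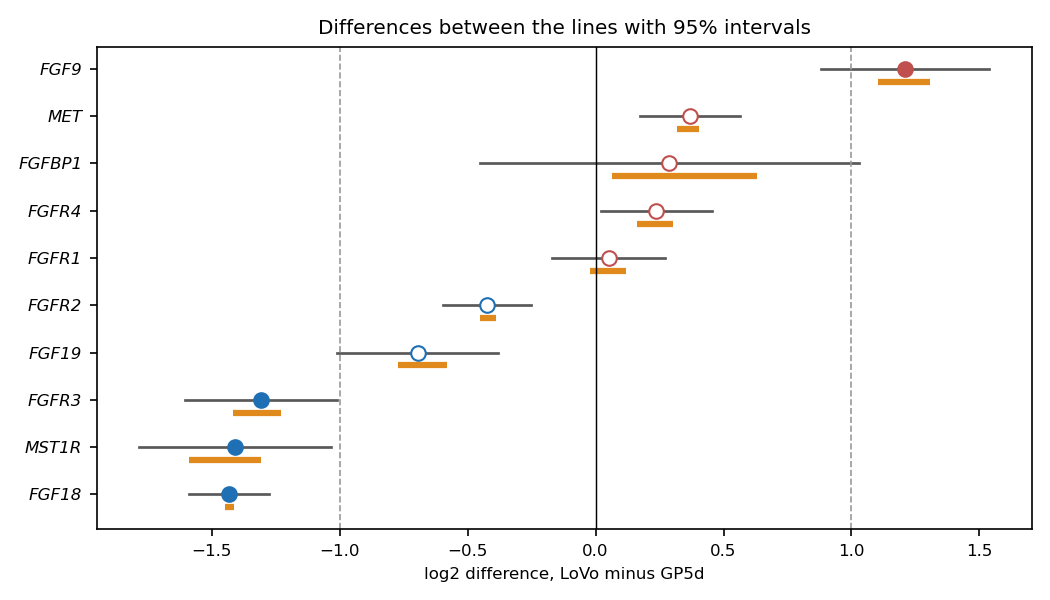
Log2 difference (LoVo minus GP5d as deposited, horizontal axis) of each gene as a circle, filled where called, with its 95% interval as a grey line, the range over fits with 1 array left out as an orange bar and the 2-fold limits as dashed lines. FGF18, MST1R and FGFR3 lie beyond the limit towards GP5d with their whole intervals, FGF9 lies beyond it towards LoVo with an interval that crosses it, and FGFBP1 has the widest interval, from -0.45 to 1.03. The intervals are not adjusted for the number of genes tested. MST1R and FGFR3 did not pass a test against the 2-fold limit, and the FGF18 interval uses LoVo values within the low peak.

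Set side by side, the ligand and receptor values split as follows. Values of FGFR3 and FGF18 were higher in GP5d and those of FGF9 in LoVo, and as background both ligands can activate FGFR3. Which splice form of FGFR3 the lines made, and whether either ligand acted on it, was not measured. By mean, 5 of the 10 genes were higher in each line. As deposited, the values of the lines did not overlap at 8 of the 10 genes and at 44.1% of all genes, but the separation of FGFR4 and FGF19 lies within the low peak. With low values raised to its end there was no overlap at 6 of the 10 genes and at 36.0% of all genes. Where the adjusted p was the sole criterion, 7 of the 10 genes passed, and 43.3% of all genes did. Among the 6 genes above the low peak on all 8 arrays, 3 were called (FGFR3, FGF9 and MST1R), against 19.7% of the 9060 genes that were above it on all 8.

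The differences of the 4 called genes were moderate within the table. By absolute difference MST1R ranked 1427 of 19002, FGFR3 1630 and FGF9 1836. FGF18 has no firm place among them, since its difference was -1.43 as deposited and -1.01 with its LoVo values raised to the end of the low peak. An absolute difference as large as that of FGF9 was found at 9.66% of all genes. Across the 8 arrays the genes that most resembled FGF18, among 11007 above the low peak in at least 1 line, were ENSG00000099219_at (Pearson r = 0.9997) and ENSG00000166295_at (r = 0.9995), with differences of -3.60 and -1.39. For FGF9 they were ENSG00000137776_at (r = 0.9951) and ENSG00000102393_at (r = 0.9949), with differences of 0.54 and 1.34. With 2 lines of 4 arrays such correlations mostly restate the split between the lines, and these IDs could not be named.

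**Figure D4:**
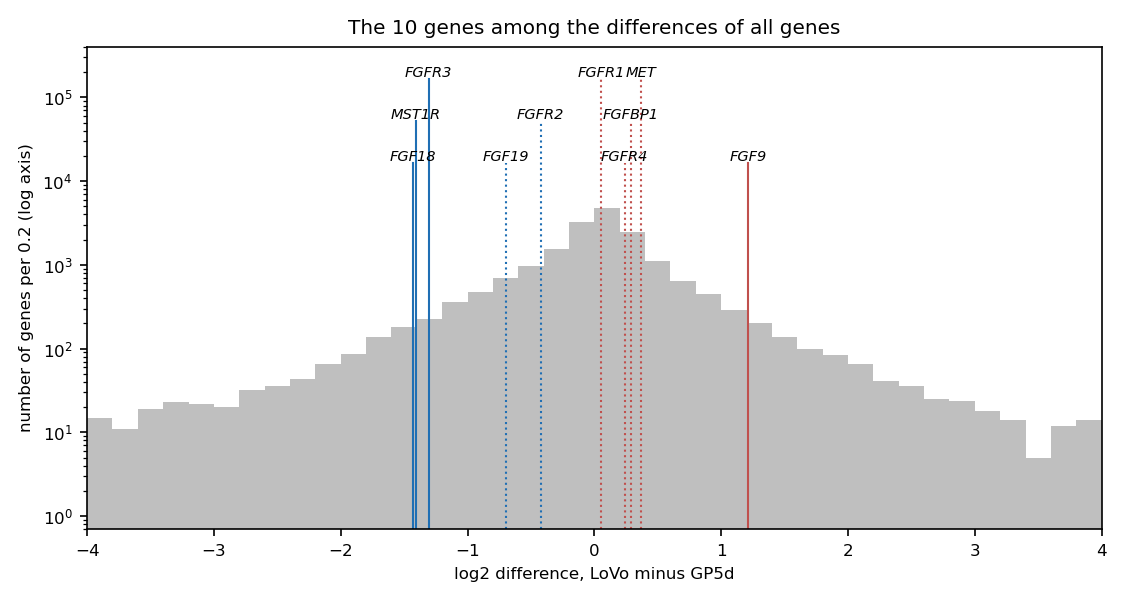
Number of genes (vertical log axis) by log2 difference, LoVo minus GP5d, in bins 0.2 wide, for all 19002 genes, with the 10 genes as vertical lines, solid where called and dotted otherwise; genes beyond the ends of the horizontal axis are not drawn. The called genes FGF18, MST1R and FGFR3 stand on the shoulder of the distribution towards GP5d and FGF9 on the one towards LoVo.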

How the data were processed

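The deposited table holds log2 values, 1 column per array and 1 row per Ensembl gene ID. The submitters' processing notes list RMA and GCRMA, with no word on which made the table. Array type, probe grouping and scan dates are not known here. Base 2 was read from the range of the values, 0.472 to 14.7. The 8 columns (medians 3.05 to 3.11) were compared as deposited. The 10 genes take their symbols from the list that defined them. The reference gene table paired 0 of 19002 IDs with a symbol, so lists of other FGF and MET pathway genes and of epithelial markers were not run, and the lines were not checked against such markers.

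All genes were fitted with limma 3.58.1 in R 4.3.3 (line as the only factor, 8 arrays, 6 residual degrees of freedom), and the fit was tested on simulated data. The low peak ends at the mode of all values (1.86) plus 3 SDs (each 0.305), the SD being taken from the lower flank. Arrays give no depth; their number limits the precision. No gene other than the 10 was named except by the rule of highest correlation with FGF9 and FGF18, the genes with the largest difference as deposited in each direction. The list of genes and the rules were drawn up with earlier results of these data known. The labels call the replicates biological without naming separate cultures, so p-values set the difference between the lines against the spread among these samples only. Figures were drawn with matplotlib 3.10.9.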

Additional observations from a re-analysis of the deposited data

How the results depend on the processing

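FGF9, FGF18, FGFR3 and MST1R kept their direction and their call in all 64 alternative values planned (a common median, quantile normalization, cyclic loess, dim genes left out, a floor at the end of the low peak, a trended robust prior, weighted arrays, a replicate block, and each of the 8 arrays left out), and the other 6 genes were called in 0 of 95. For the 4 called genes, leaving dim genes out, the trended robust prior and the replicate block kept the difference as it was. The floor did so for FGFR3, FGF9 and MST1R. These fits could change only the adjusted p. The minimum difference of the call was met in advance there, so they do not test the size of the differences. The count of 4 followed the call rule by construction. It was 7 with no minimum difference, 1 by limma's treat and 0 with a minimum log2 difference of 2, since the largest absolute difference was 1.43; 8 of the 10 had an unadjusted limma p under 0.05. Over all genes the count of 2530 became 8230, 1250 and 721 under these 3 rules, and 2499 to 2580 with 1 array left out. The 4 called genes ranged from 1.11 to 1.31 (FGF9), -1.45 to -1.41 (FGF18), -1.42 to -1.23 (FGFR3) and -1.59 to -1.31 (MST1R) with 1 array left out. Under the floor, FGF18 was at -1.01, at the limit of a call, because the floor raises its LoVo values. Floors at 2 and 4 SDs above the mode, added after seeing the data, put it at -1.32 and -0.71, so that with the second its call was lost and 3 of the 10 genes were called (2162 of all genes); FGFR2 then was at -0.0037. Members above the low peak on 4 arrays numbered 6 in LoVo and 8 in GP5d, and 8 and 10 or 6 and 6 with the peak ending at 2 or 4 SDs. Replicate numbers did not pair the arrays (correlations of deviations -0.0272 to 0.0471, with 1 of 8 arrays closest to its own number). With the replicate block, 4 of the 10 genes and 2530 of all genes were called. In this balanced layout the block leaves every difference unchanged, so these unchanged counts do not test pairing. The alternatives for pathway lists could not be run because those genes were not named. Signal close to the low peak limits FGFR2, FGFR4, FGF18, FGF19 and MET.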

Other observations

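GP5d replicates 1 and 2 lay apart from replicates 3 and 4 at 8 of the 10 genes, and at 43.9% of all genes. Among the 11007 genes above the low peak in at least 1 line, they did so at 51.1%. For FGF9 the deviations from the GP5d mean were 0.25 and 0.29 on replicates 1 and 2 and -0.32 and -0.22 on replicates 3 and 4. For FGF19 they were -0.09 and -0.23 against 0.15 and 0.17, and for FGFR3 -0.16 and -0.14 against 0.10 and 0.19. FGFR1 and FGF18 did not show this order. These arrays were set apart by their values and not by a label, so no test was made. The p-values treat the 4 GP5d arrays as separate samples. Fits with 1 array left out do not show what leaving out such a pair would do, for FGF9 among others. Dixon's test for 1 array far from the rest was applied to 20 sets of 4 arrays (10 genes in each line), and none passed, and the highest ratio of gap to range was 0.736, for FGFR4 on GP5d replicate 4.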
